A study of Mus musculus with 6 samples.

Results

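Serum response factor (SRF) and 5 of its cofactors were followed in cardiomyocyte (CM) nuclei of mice that overexpressed (OE) a YAP variant. The 6 genes, *Srf*, *Mrtfa* (also *Mkl1*), *Mrtfb* (also *Mkl2*), *Myocd*, *Elk1* and *Elk4*, were taken by symbol from the 54532 genes of the count table, of which 13323 were tested. The set was chosen by its members' known roles and with their levels in these libraries in view, in which *Srf* was higher in both YAP groups. The values of the 6 genes are therefore a description, and where their calls are counted below, the counts are part of it and no test of the set.

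All mice were wildtype ICR mice. They received 1e+11 viral genomes of AAV9 under the skin at 6 d of age, and the hearts were taken at 9 d of age, 3 d after injection. The GFP group carried cTnT-GFP, the YAP6SA group cTnT-YAP6SA and the YAP5SA group cTnT-YAP5SA, where cTnT is the cardiac troponin T regulatory element that drives expression in CMs. YAP is the coactivator held back by the Hippo pathway. YAP5SA carries serine to alanine changes at the sites that the LATS1/2 kinases phosphorylate, and YAP6SA carries 1 more such change, which disrupts its interaction with the TEAD transcription factors. CM nuclei were enriched with an antibody against PCM-1 from 2 hearts per virus, and poly-A RNA was sequenced without strand information. Each group had 2 libraries, 1 in batch 1 and 1 in batch 2, where the replicate number was taken as the batch. Nothing beyond the hearts per virus says that the libraries came from separate animals, so the spread between them may be technical in part.

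SRF is a transcription factor of the MADS box class that binds DNA as a dimer at the CArG box, a run of A and T bases framed by CC and GG. Its targets are set by the partner it recruits. The myocardin family (*Myocd*, *Mrtfa*, *Mrtfb*) directs it to cytoskeletal and contractile genes, and the MRTF members are held in the cytoplasm by monomeric actin until actin polymerizes. The ternary complex factors (*Elk1*, *Elk4*, *Elk3*) bind beside SRF at an ETS motif and, once phosphorylated by ERK, activate immediate early genes. SRF is required for cardiac sarcomere assembly, and its own gene is a classical target of SRF.

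The libraries held 14552847 to 19615627 gene counts, and 3 counts correspond to 0.153 to 0.206 CPM (counts scaled to the library size after TMM normalization). The 8 CM markers summed to 32070 to 75177 CPM per library. Much of the sum came from *Myh6* (17842 and 27942 CPM in GFP) and *Tnnt2* (14993 and 17562 CPM in GFP). Both are also on the cardiac list of SRF targets below. The sums were lowest in YAP5SA, with 44864 and 32070 CPM in batches 1 and 2 against 56032 and 75177 CPM in GFP. The YAP5SA library of batch 2 stood lowest of all. Markers of other cells were present at lower levels in every group, with 857 to 1771 CPM for 8 fibroblast markers, 260 to 381 CPM for 8 endothelial markers, 342 to 595 CPM for 8 mural cell markers and 62.9 to 121 CPM for 8 macrophage markers. The fibroblast sum was higher in batch 1 than in batch 2 of every group. Within each batch it was also higher in both YAP groups than in GFP. In batches 1 and 2 it was 1363 and 857 CPM in GFP, 1771 and 981 CPM in YAP6SA and 1491 and 903 CPM in YAP5SA. In bulk nuclei, fewer cells of a type and less RNA per cell cannot be told apart. *Yap1* itself lay between 102 and 139 CPM with overlapping groups, so the overexpression was not visible in its counts, and whether the virus cassette contributes to them is not given in the sources used here.

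*Srf* (ENSMUSG00000015605, chromosome 17 of GRCm38, 46548329 to 46556175, minus strand) encodes the DNA-binding subunit. In batches 1 and 2, the counts of *Srf* were 1204 and 909 in GFP, 3122 and 2410 in YAP6SA OE CMs, and 2155 and 1664 in YAP5SA OE CMs. As CPM these were 63.1 and 59.1 in GFP, 158 and 146 in YAP6SA, and 142 and 92.9 in YAP5SA. Every YAP library was above both GFP libraries, and both YAP6SA libraries were above both YAP5SA libraries.

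**Figure D1:**
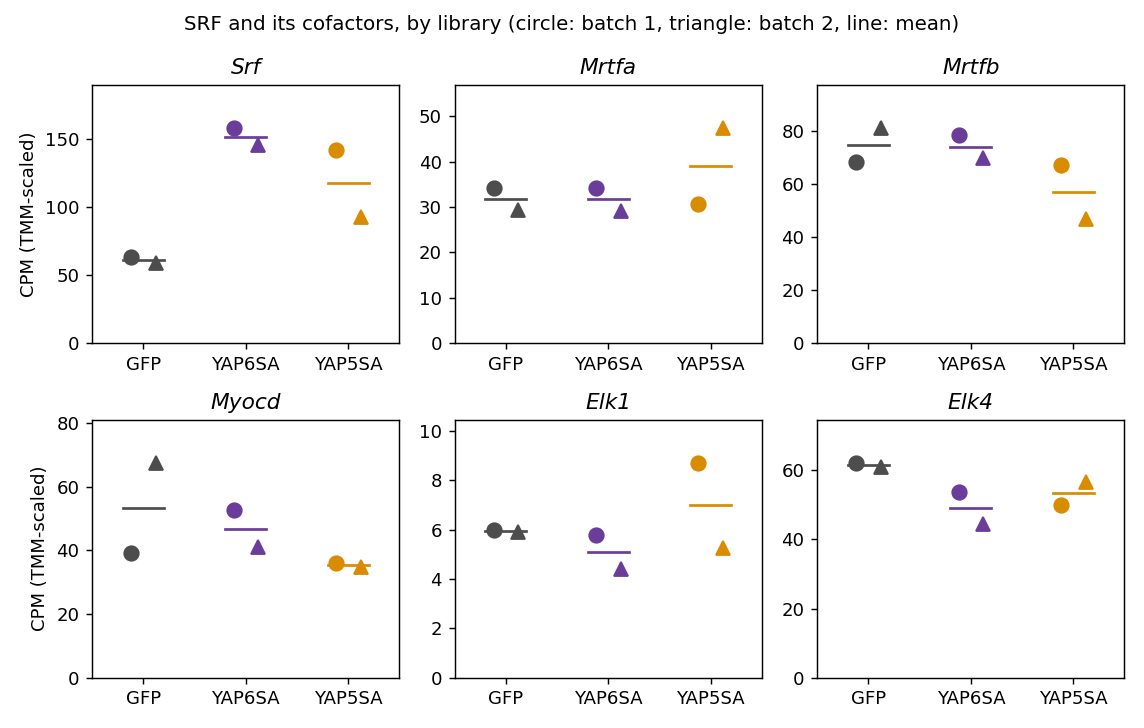
Level of each of the 6 genes in CPM (TMM-scaled; vertical axis, from 0) in the GFP, YAP6SA and YAP5SA groups (horizontal axis), with 1 point per library (circle for batch 1, triangle for batch 2) and a line at the group mean (n = 2). *Srf* separates both YAP groups from GFP, while the other 5 genes stay within 4.41 to 81.0 CPM, with *Mrtfa*, *Mrtfb* and *Elk1* spread widest in YAP5SA and *Myocd* in GFP.

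The mean of *Srf* was 61.1 ± 2.78 CPM in GFP (SD, n = 2), 152 ± 8.96 CPM in YAP6SA and 118 ± 34.9 CPM in YAP5SA. The fitted change was 2.48-fold in YAP6SA OE CMs (log2 fold change 1.31, standard error 0.17) and 1.89-fold in YAP5SA OE CMs (log2 fold change 0.92, standard error 0.17). Between the variants the log2 fold change was -0.39 (standard error 0.17), YAP5SA minus YAP6SA. These comparisons share libraries, the GFP pair in the first and second.

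The excess of *Srf* in YAP6SA was even across batches, with log2 differences of 1.33 in batch 1 and 1.30 in batch 2. In YAP5SA it was uneven, with 1.17 in batch 1 and 0.65 in batch 2. The gap between the variants was wider in batch 2, with a log2 difference of -0.65 (YAP5SA minus YAP6SA) against -0.15 in batch 1. The YAP5SA library of batch 2 was also the one with the lowest CM marker sum, and the part of that in its *Srf* level was not tested. Without it the log2 fold change of *Srf* in YAP5SA was 1.18.

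Ranked by log2 fold change from the highest, *Srf* was number 78 of 13323 genes in YAP6SA, with 0.578% of genes above it, and number 1492 in YAP5SA, with 11.2% above it. The calls that follow describe values that were in view when the set was chosen, and are no support for a change of *Srf*. Of the 6 genes, 1, *Srf*, passed an FDR of 0.05 in YAP6SA against GFP, where 0.0450% of all tested genes did (0.0450% higher and 0% lower). The same gene passed in YAP5SA against GFP, where 22.0% of all tested genes did (12.8% higher and 9.18% lower). None passed in YAP5SA against YAP6SA, where 14.7% of all tested genes did (1199 genes higher and 757 lower, edgeR quasi-likelihood test). In that comparison 1 of the 6, *Srf*, was lower at an unadjusted p under 0.05, as were 14.5% of all genes, and DESeq2 called 0 of the 6 as well. *Srf* did not pass in YAP6SA without any 1 of the GFP or YAP6SA libraries, where its log2 fold change ran from 1.18 to 1.46, nor without the batch term, where it was 1.31. In YAP5SA it did not pass without the GFP library of batch 1, where its log2 fold change was 0.80.

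**Figure D2:**
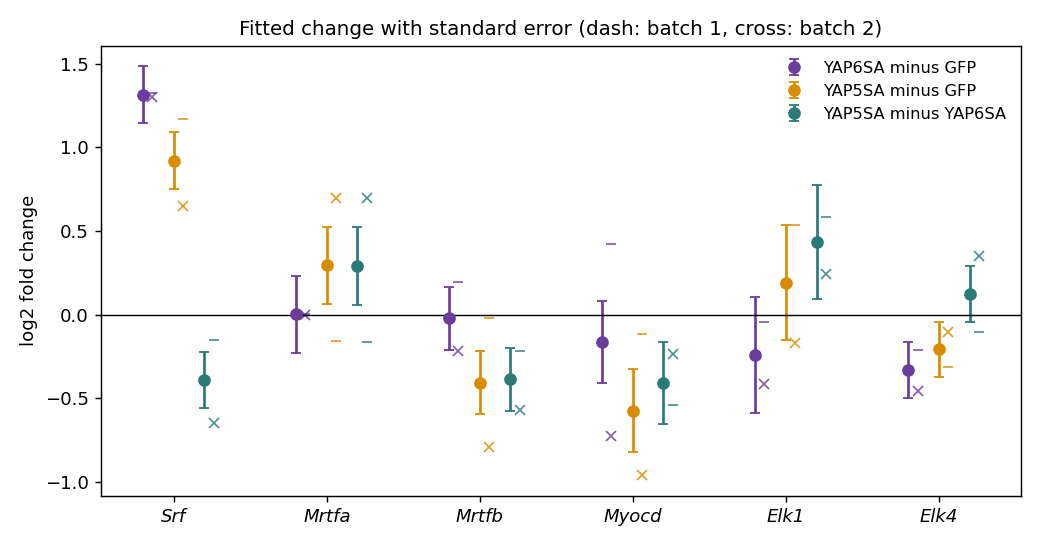
Fitted log2 fold change (vertical axis) of each of the 6 genes (horizontal axis) for YAP6SA minus GFP, YAP5SA minus GFP and YAP5SA minus YAP6SA, with bars of 1 standard error, and the difference within batch 1 (dash) and batch 2 (cross). *Srf* lies at 1.31 and 0.92 against GFP, and the other genes lie between -0.57 and 0.43, often with the 2 batches on opposite sides of 0.

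The upstream sequence of *Srf* is shown because SRF can bind the promoter of its own gene. RefSeq windows from 250 bases before to 50 bases after a start site were read for 5 of the 6 genes (10 windows, GRCm38.p6), and *Myocd* had no window. The 237 bases before the annotated transcript, chr17:46556176-46556412 on the minus strand, are given with capitals at both CArG boxes.

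Srf: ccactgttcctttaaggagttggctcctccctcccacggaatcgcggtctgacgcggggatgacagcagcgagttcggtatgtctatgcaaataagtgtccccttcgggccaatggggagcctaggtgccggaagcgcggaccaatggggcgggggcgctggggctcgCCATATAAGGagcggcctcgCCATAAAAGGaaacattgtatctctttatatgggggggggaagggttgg

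The boxes span positions -82 to -73 and -62 to -53 from the start site (position 0 being its first base). The ETS core CCGGAA lay at -122 to -117 and the SP core GGGCGG at -103 to -98. The TEAD core CATTCC was not found in this window (all motifs searched on both strands, with no overlap between different motifs here). A CArG box was in a window of 1.81% of 27025 genes, and 2 or more in 1 window occurred in 5 genes (0.0185%), which were *Srf*, *Dusp5*, *Ceacam11*, *Gm33934* and *Gm39572*.

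The windows of *Mrtfa*, *Mrtfb*, *Elk1* and *Elk4* held no CArG box. *Mrtfb* had an ETS core in the overlapping windows of 2 starts and a TEAD core at its start farthest downstream, *Elk4* had an ETS core at its first start, and *Elk1* had SP cores alone. Among all genes, 16.7% had an ETS core, 16.6% a TEAD core and 38.2% an SP core in a window. A match of these letters is a description of sequence and not a measured binding site.

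**Figure D3:**
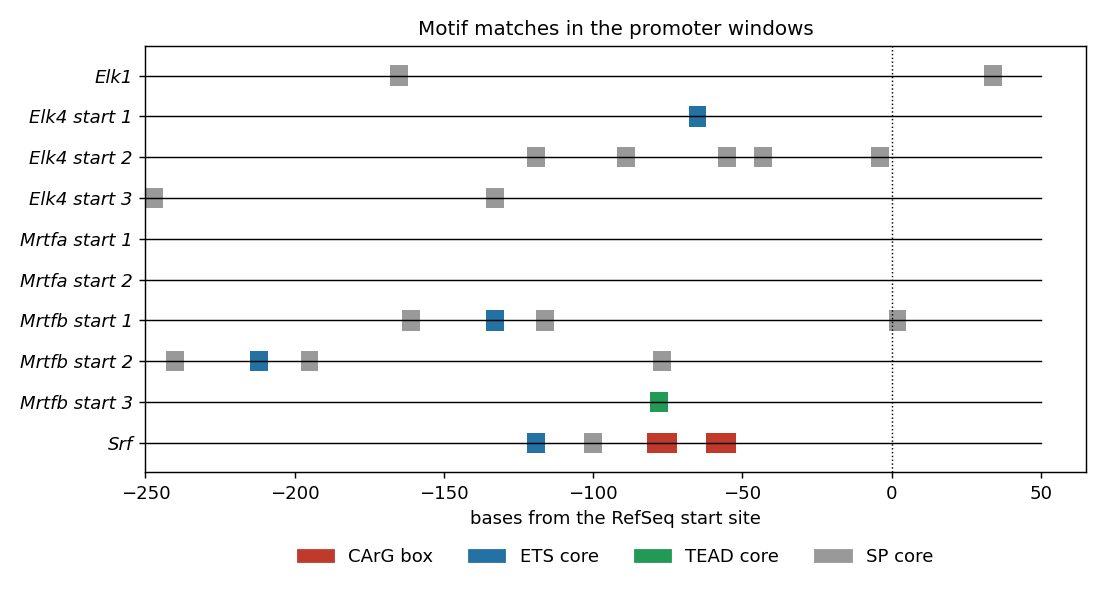
Matches to 4 motifs (colors) in the 10 RefSeq promoter windows of 5 genes, by distance in bases from the start site (horizontal axis), with 1 line per window and start sites numbered by coordinate. *Srf* is the gene with CArG boxes, at -82 and -62, and both *Mrtfa* windows are empty.

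*Mrtfa* (ENSMUSG00000042292, chromosome 15, 81012281 to 81190757, minus strand), an actin-sensing cofactor, had 34.1 and 29.2 CPM in GFP, 34.3 and 29.2 CPM in YAP6SA, and 30.6 and 47.4 CPM in YAP5SA. GFP and YAP6SA were nearly identical, with a log2 fold change of 0.0028 (standard error 0.23). The YAP5SA library of batch 2 stood above all the others, and that of batch 1 lay inside the range of GFP, so that the log2 difference from GFP was -0.15 in batch 1 and 0.70 in batch 2.

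*Mrtfb* (ENSMUSG00000009569, chromosome 16, 13256481 to 13417529, plus strand), its close relative with the same actin-binding motifs, had 68.2 and 81.0 CPM in GFP, 78.3 and 69.7 CPM in YAP6SA, and 67.2 and 46.9 CPM in YAP5SA. The log2 fold change was -0.02 in YAP6SA and -0.41 in YAP5SA (standard errors 0.19 and 0.19). Both YAP5SA libraries were below both GFP libraries, that of batch 1 narrowly (67.2 against 68.2 CPM), and here too the library of batch 2 was the distant one.

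In the YAP5SA library of batch 2, *Mrtfa* was above and *Mrtfb* below all other libraries. The ratio of *Mrtfb* to *Mrtfa*, each as CPM per kilobase of merged exons, was 1.36 and 1.89 in GFP, 1.55 and 1.62 in YAP6SA and 1.49 in the YAP5SA library of batch 1. In the YAP5SA library of batch 2 it was 0.672, the one value at which *Mrtfa* exceeded *Mrtfb*. When the YAP5SA library of batch 1 was left out, *Mrtfa*, *Mrtfb* and *Srf* all passed the threshold in YAP5SA against GFP and against YAP6SA, 3 of the 6 in each, where 35.7% and 30.5% of all 13458 genes tested in that fit passed, and these calls rest on the remaining library.

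*Myocd* (ENSMUSG00000020542, chromosome 11, 65176561 to 65269989, minus strand) encodes myocardin, the founding member of the family, which is restricted to cardiac and smooth muscle. It had 39.1 and 67.5 CPM in GFP, 52.6 and 40.9 CPM in YAP6SA, and 36.1 and 34.7 CPM in YAP5SA. Its GFP libraries differed more than those of any other of the 6 genes, and the direction of the YAP6SA difference depended on the batch, with log2 differences of 0.42 in batch 1 and -0.72 in batch 2.

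In YAP5SA OE CMs both libraries of *Myocd* were below both GFP libraries, with log2 differences of -0.12 and -0.96 in batches 1 and 2 and a fitted log2 fold change of -0.57 (standard error 0.25). The CM marker sum was also lower there, by the values given above, and its part in the *Myocd* level was not tested. Without the filter on low counts, or without the GFP library of batch 1, *Myocd* passed the threshold in YAP5SA against GFP.

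*Elk4* (ENSMUSG00000026436, chromosome 1, 132007607 to 132032612, plus strand), also called SAP1, is a ternary complex factor. It had 62.2 and 61.0 CPM in GFP, 53.7 and 44.4 CPM in YAP6SA, and 50.04 and 56.7 CPM in YAP5SA. All 4 YAP libraries were below both GFP libraries, with fitted log2 changes of -0.33 in YAP6SA and -0.21 in YAP5SA (standard errors 0.17 and 0.17).

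*Elk1* (ENSMUSG00000009406, chromosome X, 20933395 to 20950608, minus strand), the prototype of the ternary complex factors, was the lowest of the 6. It had 5.97 and 5.92 CPM in GFP, 5.78 and 4.41 CPM in YAP6SA, and 8.71 and 5.25 CPM in YAP5SA, from 73 to 132 counts per library. Its standard error of 0.34 in each comparison was the largest of the 6, and its log2 fold changes against GFP, -0.24 and 0.19, lay inside it. *Elk3*, the ternary complex factor outside the set, had 10.5 and 11.4 CPM in GFP, 18.8 and 9.48 CPM in YAP6SA and 13.7 and 12.2 CPM in YAP5SA, and did not pass the threshold in either group (log2 fold change 0.32 and 0.23).

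Groups did not overlap for 1 higher and 2 lower of the 6 genes in YAP6SA against GFP, where 34.3% of all tested genes did not overlap (17.3% higher and 17.0% lower). They did not overlap for 1 higher and 3 lower in YAP5SA against GFP, where 60.9% of all genes did not (31.2% higher and 29.7% lower), and for 3 lower in YAP5SA against YAP6SA, where 57.6% did not (28.6% higher and 28.9% lower). The median log2 fold change of the 6 was -0.09 in YAP6SA and -0.01 in YAP5SA, beside 0.0018 and -0.0031 over all tested genes. Of the 6, 2 had a positive log2 fold change in YAP6SA against GFP, 3 in YAP5SA against GFP and 3 in YAP5SA against YAP6SA, beside 50.3%, 49.7% and 49.0% of all genes.

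Per kilobase of merged exons, *Srf* was the highest of the 6 in every library. In GFP it had 21.1 ± 0.960 CPM per kilobase, followed by *Elk4* with 9.62, *Myocd* with 8.30, *Mrtfb* with 8.30, *Mrtfa* with 5.18 and *Elk1* with 1.11. The libraries of *Elk4* overlapped with those of *Myocd*, and those of *Myocd* with those of *Mrtfb*, so these neighbours did not differ beyond their spread. *Srf*, *Mrtfa* and *Elk1* held their places without overlap. Exons shared with another gene made up 2.93% of the exon bases of *Elk4*, 1.80% of *Mrtfb*, 1.41% of *Elk1*, 0.160% of *Mrtfa* and none of *Srf* or *Myocd*, and reads there cannot be assigned by strand.

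In YAP6SA OE CMs *Srf* reached 52.5 ± 3.10 CPM per kilobase, and *Mrtfb*, *Elk4* and *Myocd* overlapped in turn at 8.23, 7.65 and 7.27. In YAP5SA OE CMs *Srf* was at 40.6 ± 12.1, *Elk4* was next at 8.33, and *Mrtfa*, *Mrtfb* and *Myocd* overlapped in turn at 6.38, 6.34 and 5.51. *Elk1* was lowest in both, at 0.947 and 1.30.

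**Figure D4:**
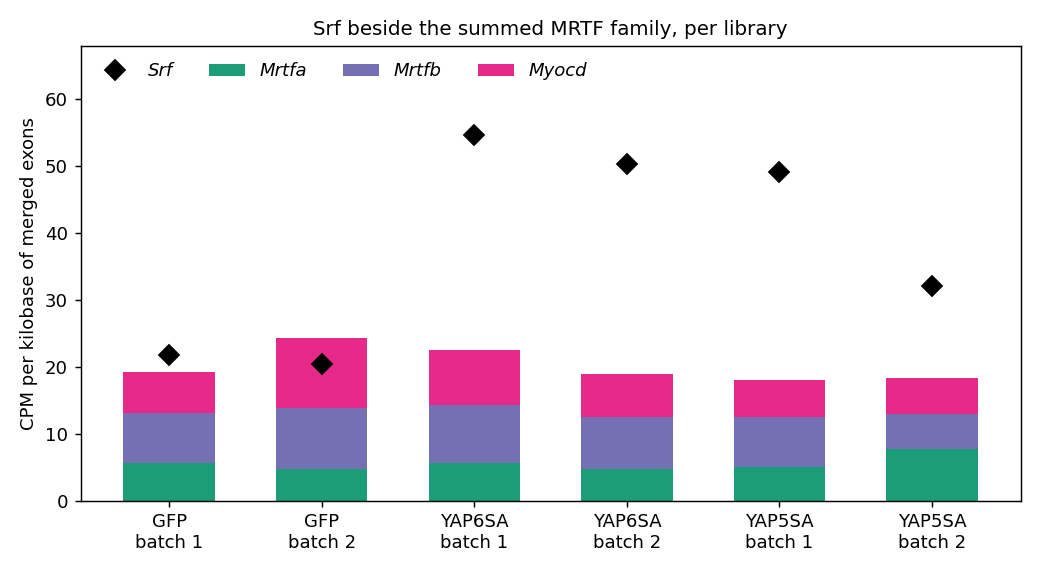
Level in CPM per kilobase of merged exons (vertical axis, from 0) in each of the 6 libraries (horizontal axis), with the 3 myocardin family genes stacked as bars and *Srf* as a diamond. The bars stay between 18.1 and 24.3 in all libraries, while *Srf* lies at 20.4 to 21.8 in GFP and at 32.1 to 54.7 in the YAP libraries.

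Relative to its partners, *Srf* mRNA was higher in every YAP library than in GFP. The ratio of *Srf* to the summed myocardin family was 1.13 and 0.841 in GFP, 2.43 and 2.66 in YAP6SA, and 2.72 and 1.75 in YAP5SA. The ratio of *Srf* to the sum of *Elk1* and *Elk4* was 2.01 and 1.92 in GFP, 5.79 and 6.49 in YAP6SA, and 5.21 and 3.27 in YAP5SA. These are ratios of mRNA, and protein and the nuclear share of MRTF were not measured here.

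The family's composition was similar in GFP and YAP6SA. *Mrtfa*, *Mrtfb* and *Myocd* took 24.3%, 38.2% and 37.4% of the family in GFP, and 25.1%, 39.9% and 35.0% in YAP6SA. In YAP5SA the shares were 34.9%, 34.8% and 30.2%, where *Mrtfa* took 27.7% in batch 1 and 42.2% in batch 2. The share of *Mrtfa* in batch 1 was within the 19.7% to 29.0% of the GFP libraries.

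The genes whose profile over the 6 libraries was most like that of *Srf*, by the root mean square distance of log2 CPM after each gene was centred on its mean, were *Gm49338* (0.148), *Sik1* (0.181), *Ccdc78* (0.207), *Coq10b* (0.209) and *Tmem255b* (0.223). The median distance over 13322 genes was 0.652. Of the 5, *Sik1*, a salt-inducible kinase, and *Coq10b*, a coenzyme Q binding protein, were well expressed. *Sik1* had 40.0 and 36.2 CPM in GFP, 143 and 104 CPM in YAP6SA and 96.4 and 65.4 CPM in YAP5SA, with the YAP5SA library of batch 2 again the lowest of the YAP libraries. The other 3 genes were below 3 CPM in every library. They passed the filter, a median log2 CPM over 1 in at least 1 group, through YAP6SA alone. Their likeness to *Srf* was therefore fixed in part by the filter.

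The genes downstream were described with 3 lists of known SRF targets. These lists and those further below were chosen with earlier results of these data known. Their shares beside all genes are therefore a description and no independent test. The first held 36 cytoskeletal and smooth muscle genes, of which 33 were tested and *Tagln*, *Actg2* and *Lmod1* were too low. In YAP6SA 2 rose and 0 fell, 6.06% of the list against 0.0450% of all genes, while 16 were higher and 0 lower at an unadjusted p under 0.05 (3.86% and 2.07% of all genes) and DESeq2 called 5 higher. In YAP5SA 23 rose and 2 fell, 75.8% of the list against 22.0% of all genes, and both genes that rose in YAP6SA, *Acta2* and *Myl9*, were among them. The median log2 fold change of the list was 0.43 in YAP6SA and 0.86 in YAP5SA.

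*Acta2*, the actin of smooth muscle and of immature CMs, had 271 and 141 CPM in GFP, 1553 and 1251 CPM in YAP6SA and 1836 and 1348 CPM in YAP5SA. It rose in both groups to a similar level, by 2.83 on the log2 scale in YAP6SA (standard error 0.22, edgeR FDR 0.00222) and by 2.996 in YAP5SA (standard error 0.22, edgeR FDR 7.97e-05). Between the variants the log2 fold change was 0.17 with a standard error of 0.20.

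*Myl9*, a regulatory light chain of nonmuscle and smooth muscle myosin, had 45.6 and 18.4 CPM in GFP, 123 and 98.4 CPM in YAP6SA and 103 and 69.9 CPM in YAP5SA. It rose in both groups, by 1.89 on the log2 scale in YAP6SA (standard error 0.22, edgeR FDR 0.0250) and 1.51 in YAP5SA (standard error 0.22, edgeR FDR 0.00186). Like *Srf*, it was higher in both YAP6SA libraries than in the YAP5SA library of the same batch.

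Other genes of the list separated the variants. *Cnn2*, an actin-binding calponin, had 39.8 and 25.9 CPM in GFP, 87.1 and 50.1 CPM in YAP6SA, and 213 and 265 CPM in YAP5SA. It rose in YAP5SA against GFP and against YAP6SA, with log2 fold changes of 2.92 and 1.87. *Cald1* (caldesmon, an actin and myosin linker) rose by 2.91 against GFP and 2.96 against YAP6SA, and its log2 fold change in YAP6SA was -0.05. The matricellular genes *Ccn2* and *Ccn1*, which are TEAD targets as well as SRF targets, rose in YAP5SA by log2 fold changes of 3.33 and 1.96 and had 0.67 and -0.54 in YAP6SA without passing the threshold.

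In the direct comparison 10 genes of this list were higher and 2 lower in YAP5SA than in YAP6SA, 36.4% of the list against 14.7% of all genes. The lower ones were *Synpo2* and *Smtn*, which encode actin-binding proteins of muscle, and both had also fallen against GFP. The 6 smooth muscle contractile markers, all of them on this list, summed to 1199 and 1225 CPM in GFP, 2422 and 2392 CPM in YAP6SA and 2514 and 1844 CPM in YAP5SA. *Acta2*, and *Smtn* with 475 to 1131 CPM, supplied nearly all of that sum. *Myh11*, the defining myosin of smooth muscle, was low at 6.05 to 21.3 CPM, and *Tagln* lay at 0.0651 to 1.19 CPM. Of the 4 markers tested, 3 rose and 1 fell in YAP5SA against GFP, where 22.0% of all genes were called. Those that rose included *Myh11* (log2 fold change 1.00, edgeR FDR 0.0274) and *Cnn1* (1.70, edgeR FDR 0.0322). In YAP6SA against GFP 1 of the 4, *Acta2*, rose, where 0.0450% of all genes were called. All 8 fibroblast and all 8 mural cell markers had a positive log2 fold change in YAP6SA against GFP (medians 0.32 and 0.27), beside 50.3% of all genes. In YAP5SA against GFP 5 and 2 of them did, beside 49.7%. The part of smooth muscle cells in the *Acta2* level, and that of other cells in the changes of this list, was not tested. The count of 2 in YAP6SA became 12 in a fit of the 4 libraries compared or without either YAP5SA library, and 0 without the batch term. The count in YAP5SA was 11 without the GFP library of batch 2 and 21 without the YAP5SA library of batch 2.

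**Figure D5:**
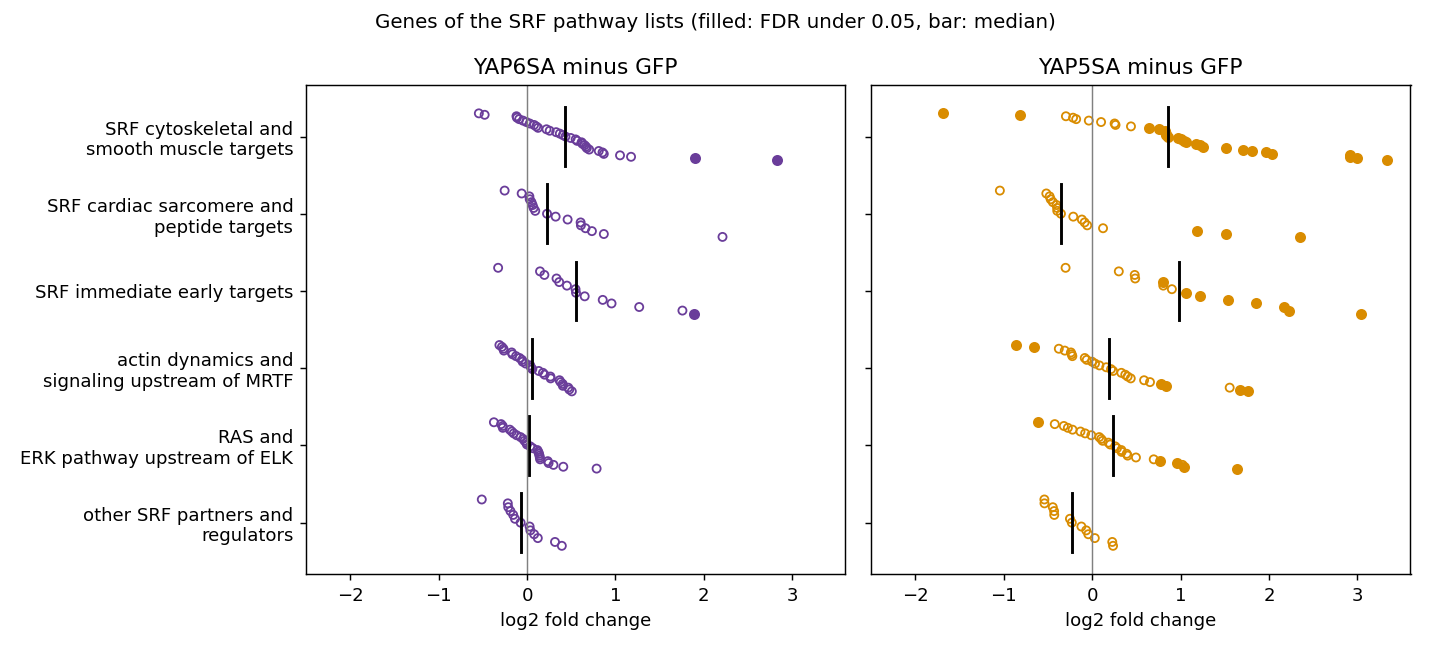
Fitted log2 fold change (horizontal axis) of every tested gene of 6 lists (vertical axis, 1 dot per gene sorted within its list), for YAP6SA minus GFP (left) and YAP5SA minus GFP (right), filled where the FDR was under 0.05, with a bar at the list's median. The cytoskeletal and immediate early lists have medians of 0.43 and 0.55 in YAP6SA and 0.86 and 0.98 in YAP5SA, and the cardiac list lies at 0.23 and -0.35.

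The second list held 17 cardiac sarcomere and natriuretic peptide genes, all tested. None passed the threshold in YAP6SA (edgeR quasi-likelihood test), where 0.0450% of all genes did. At an unadjusted p under 0.05, 5 were higher and 0 lower there (3.86% and 2.07% of all genes). DESeq2 called 1, and the median log2 fold change was 0.23. In YAP5SA 3 rose and 0 fell, 17.6% of the list, which was below the 22.0% of all genes called. There 3 were higher and 5 lower at an unadjusted p under 0.05 (19.4% and 17.0% of all genes), and the median was -0.35. The 3 that rose were *Ankrd1*, *Nppb* and *Nppa*, stress-responsive genes that encode a titin-associated ankyrin repeat protein and both natriuretic peptides, and none of them is part of the core contractile filament.

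*Ankrd1* had 723 and 871 CPM in GFP, 1321 and 1591 CPM in YAP6SA and 3413 and 4797 CPM in YAP5SA. On the log2 scale the difference from GFP was 0.87 in YAP6SA (standard error 0.20, edgeR FDR 0.328) and 2.35 in YAP5SA (standard error 0.21, edgeR FDR 0.000200). Both YAP6SA libraries were above both GFP libraries although the gene did not pass.

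*Acta1*, the skeletal actin that CMs express in early life, was highest in YAP6SA. It had 72.3 and 11.3 CPM in GFP, 173 and 98.8 CPM in YAP6SA, and 61.9 and 11.95 CPM in YAP5SA. The YAP5SA level was below that of YAP6SA, with a log2 fold change of -2.33 (standard error 0.37, edgeR FDR 0.00359), while its log2 fold change of 2.21 in YAP6SA against GFP did not pass (edgeR FDR 0.156). In all 3 groups the library of batch 1 was above that of batch 2.

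Between the variants 2 genes of the cardiac list were higher and 3 lower in YAP5SA, 29.4% of the list against 14.7% of all genes, while 3 were higher and 11 lower at an unadjusted p under 0.05 (16.4% and 14.5% of all genes). The higher ones were *Ankrd1* and *Nppa*. The lower ones were *Acta1*, *Ckm* (muscle creatine kinase, log2 fold change -1.14) and *Hopx* (a homeodomain cofactor that binds SRF, -0.81). The CM markers, of which *Ryr2* and *Pln* fell in YAP5SA, moved with this list, but *Myh6* and *Tnnt2* belong to both. The part of the CM markers in this list was not tested. Without the YAP5SA library of batch 1, most calls were lower, with 3 higher and 8 lower in YAP5SA against GFP and 3 higher and 13 lower against YAP6SA. The counts in these comparisons were 1 and 6 without the GFP library of batch 2, and 3 and 2 without the YAP5SA library of batch 2.

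The third list held 18 immediate early genes, of which 14 were tested. In YAP6SA 1 rose and 0 fell, 7.14% of the list against 0.0450% of all genes, and 6 were higher at an unadjusted p under 0.05 (3.86% of all genes). In YAP5SA 8 rose and 0 fell, 57.1% of the list against 22.0% of all genes, and in YAP5SA against YAP6SA 3 were higher and 2 lower, 35.7% of the list against 14.7%. The medians were 0.55, 0.98 and 0.28.

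*Nr4a1*, an orphan nuclear receptor induced within minutes of a stimulus, was the one that rose in YAP6SA. It had 61.0 and 68.5 CPM in GFP, 263 and 221 CPM in YAP6SA and 192 and 117 CPM in YAP5SA. On the log2 scale it rose by 1.89 in YAP6SA (standard error 0.20, edgeR FDR 0.0159) and 1.22 in YAP5SA (standard error 0.20, edgeR FDR 0.00344), and it was lower in YAP5SA than in YAP6SA by a log2 fold change of -0.67 (edgeR FDR 0.0492). The order of its groups was that of *Srf*.

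The zinc finger factors had another order. *Egr3* had 3.51 and 3.06 CPM in GFP, 7.25 and 2.84 CPM in YAP6SA and 16.0 and 14.4 CPM in YAP5SA, and rose in YAP5SA against GFP (log2 fold change 2.22) and against YAP6SA (1.68). *Klf4* rose in the same comparisons by 2.17 and 1.52. *Egr2* rose in YAP5SA by 3.04 (standard error 0.79), from a level of 1.15 CPM or less in GFP, and *Fos* rose there by 1.53 while having 1.27 in YAP6SA without passing. *Dusp1*, a phosphatase that dampens MAP kinases, was lower in YAP5SA than in YAP6SA (-0.75). *Atf3*, a stress-induced factor, had 12.8 and 3.71 CPM in GFP, 25.0 and 27.3 CPM in YAP6SA and 27.3 and 28.8 CPM in YAP5SA, and rose in YAP5SA (1.86) but did not pass in YAP6SA (1.76, edgeR FDR 0.328). Without the GFP library of batch 2 the count in YAP5SA was 3, without the YAP5SA library of batch 1 it was 13, and without that of batch 2 it was 4.

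Genes of these lists also carried CArG boxes close to their start. A box was in a window of 6 of 29 cytoskeletal genes (20.7%), 5 of 16 cardiac genes (31.3%) and 2 of 13 immediate early genes (15.4%) that had a window, against 1.81% of all genes. Those that passed the threshold in at least 1 comparison are shown with 8 bases on each side and the box in capitals, and *Dusp5* is added as the listed gene that shares the paired boxes of *Srf*. Coordinates are those of GRCm38.p6.

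Myl9, chr2:156775295-156775320, plus strand: agcagaggCCTAATAAGGccgggctg
Cnn2, chr10:79988536-79988561, plus strand: cttccacgCCTTATAAGGacatttgc
Fhl1, chrX:56779573-56779598, plus strand: ttggatcaCCTAAAATGGttaagaat
Acta1, chr8:123894831-123894856, minus strand: cccgacacCCAAATATGGcttgggaa
Hopx, chr5:77115189-77115214, minus strand: acccgagtCCAAATAAGGaagctggg
Egr2, chr10:67537486-67537511, plus strand: gatcttctCCTTTTTTGGaaagtctc
Egr2, chr10:67537789-67537814, plus strand: tcctcagtCCATATATGGgcagcgac
Zfp36, chr7:28379269-28379294, minus strand: aggccgccCCATAAAAGGagaaagct
Dusp5, chr19:53529055-53529080, plus strand: ggaaatacCCATATTTGGccttatat
Dusp5, chr19:53529065-53529090, plus strand: atatttggCCTTATATGGgcactcac

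The box of *Zfp36* has the same 10 bases as the box of *Srf* nearer the start. A box did not go with a call in every case, since *Vcl*, *Fhl2* and *Actg1* of the cytoskeletal list and *Actc1*, *Dmd* and *Myl3* of the cardiac list had a box and did not pass in any of the 3 comparisons. *Actg1* had 1656 and 1573 CPM in GFP, 2496 and 2645 CPM in YAP6SA and 1948 and 1242 CPM in YAP5SA, so its YAP6SA libraries were the highest although its FDR was 0.693 (edgeR).

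Genes with a box were also counted over all tested genes. Of 167 tested genes with a box, 2 rose in YAP6SA, and these were *Srf* and *Myl9*. In YAP5SA 29 rose (17.4%) and 18 fell (10.8%), where 12.9% of the 10036 tested genes with a window rose and 9.27% fell. Without *Srf*, the other members and the genes of the lists, 152 remained, of which 0 rose in YAP6SA and 23 rose in YAP5SA (15.1%), with a median log2 fold change of -0.0037 and 0.060. At an FDR of 0.05, 0.0498% of the 10036 genes with a window rose in YAP6SA.

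Upstream, 26 genes of actin dynamics and its signaling, which control MRTF, were measured. None passed the threshold in YAP6SA, where 0.0450% of all genes did, and DESeq2 also called 0. At an unadjusted p under 0.05, 4 were higher and 0 lower there (3.86% and 2.07% of all genes). Among the 4 were the actin-severing and actin-binding genes *Cfl2* (log2 fold change 0.51) and *Pfn1* (0.47). In YAP5SA 4 rose and 2 fell, 23.1% of the list against 22.0% of all genes. *Tmsb10* and *Tmsb4x*, thymosins that sequester monomeric actin, rose most, with log2 fold changes of 1.76 and 1.67.

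*Tmsb4x* had 88.8 and 92.2 CPM in GFP, 129 and 102 CPM in YAP6SA and 196 and 395 CPM in YAP5SA. *Cfl2* (cofilin of muscle, 0.84) and the kinase *Rock2* (0.78) also rose in YAP5SA, and *Pfn2* (a profilin, -0.86) and *Ssh2* (a cofilin phosphatase, -0.66) fell. Both thymosins were higher and *Pfn2* and *Ssh2* lower in YAP5SA than in YAP6SA, 15.4% of the list against 14.7% of all genes.

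Of 27 genes of the RAS and ERK pathway that activates the ELK factors, 26 were tested. None passed in YAP6SA, where 0.0450% of all genes did, and DESeq2 also called 0. At an unadjusted p under 0.05, 1 was higher there (3.86% of all genes). This was the ERK phosphatase *Dusp5*, with 30.2 and 29.2 CPM in GFP and 58.2 and 44.7 CPM in YAP6SA (log2 fold change 0.79, edgeR FDR 0.328). In YAP5SA it had 34.7 and 36.2 CPM. There 4 genes rose and 1 fell, 19.2% of the list against 22.0% of all genes, and against YAP6SA 4 were higher and 1 lower, 19.2% against 14.7%. Those called against GFP were the feedback inhibitors *Spry1* (1.64), *Dusp6* (1.04) and *Spred1* (0.96), the kinase *Braf* (0.77), and the adaptor *Grb2* (-0.61). The inhibitors rose against YAP6SA as well, with log2 fold changes of 1.49, 1.21 and 1.00, together with the receptor *Erbb2* (0.76), and *Grb2* was lower there too (-0.61).

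The last list held 13 other partners and regulators of SRF, all tested. None passed in YAP6SA or in YAP5SA against GFP, where 0.0450% and 22.0% of all genes did. At an unadjusted p under 0.05, 1 and 2 were lower (2.07% and 17.0% of all genes) and 0 higher (3.86% and 19.4%). DESeq2 called 0 in YAP6SA and 1 lower gene in YAP5SA. *Hdac5*, a histone deacetylase that binds myocardin, had 260 and 403 CPM in GFP, 222 and 235 CPM in YAP6SA and 222 and 225 CPM in YAP5SA, with log2 fold changes of -0.51 and -0.54 that did not pass. *Gata6*, a cardiac GATA factor, had -0.43 in YAP5SA and did not pass either. *Abra* (also STARS), an actin-binding activator of MRTF in striated muscle, fell from YAP6SA to YAP5SA (log2 fold change -0.62, edgeR FDR 0.0429), with 62.2 and 41.4 CPM in YAP6SA and 34.0 and 31.9 CPM in YAP5SA. Over these last 3 lists together, 11 genes were called in YAP5SA against GFP and 10 against YAP6SA. They were 16.9% and 15.4% of the 65 tested, near or below the 22.0% and 14.7% of all genes. Without the YAP5SA library of batch 2 the counts were 4 and 4.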

How the data were processed

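Nuclear poly-A RNA was sequenced in 3 groups of 2 libraries, 1 per batch. The authors aligned the reads to mm10 by STAR, counted them on Ensembl genes of GRCm38, and deposited raw read counts per gene, without normalization or filter. Coordinates and exon lengths were taken from GENCODE M21 (GRCm38), which named 54495 of 54532 genes, and promoter windows from RefSeq (GRCm38.p6).

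Genes with a median log2 CPM over 1 in at least 1 group were kept (13323), as in the study's methods, and no prior count was added for this. The counts were fitted with edgeR 4.0.16 in R 4.3.3 (TMM, quasi-likelihood test), with terms for group and batch over all 6 libraries and Benjamini-Hochberg adjustment over all genes (FDR 0.05). CPM per kilobase used merged exons. The replicate number in the labels was taken as the batch number. Deviations of libraries with the same number had correlations across genes of 0.368 (GFP and YAP6SA), 0.0985 (GFP and YAP5SA) and 0.175 (YAP6SA and YAP5SA). Replicates were no copies of each other, since their chi-square per degree of freedom was 25.3 to 39.6. Reads ambiguous between genes, 5.79% to 6.31% of each library, are in no gene's count. A floor of 3 counts covers counting error only. The fit was also run on simulated counts with the same dispersion for every gene and no batch effect. That run cannot show how the fit behaves with the spread of these libraries.

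The members and the gene lists were chosen with earlier results of these data known, and the count over all genes with a CArG box was added after their values were seen. Named genes were the members, *Yap1*, *Elk3*, the 5 genes nearest to *Srf*, and, per list and comparison, up to 4 genes with the largest change past the threshold in the same direction in both batches, or else the 2 with the smallest p. Genes named for a box, a count of 5 or fewer, or a marker role were chosen after their values were seen. The alternatives were DESeq2 size factors (RLE), no filter, edgeR's likelihood ratio test, DESeq2 1.42.0, no batch term, the 4 libraries compared, FDR 0.01 and 0.1, each library left out, and the longest transcript as length.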

Additional observations from a re-analysis of the deposited data

How the results depend on the processing

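The limits are 2 libraries per group and YAP5SA libraries that lay apart from each other. For *Mrtfa* and *Mrtfb* the YAP5SA library of batch 2 was outside all others, and for *Elk1* that of batch 1 was (8.71 CPM). A pair cannot show which of its libraries is unusual. Where a library was left out, the lone library of its group was assumed to vary like the others. *Srf* had a positive log2 fold change against GFP in every alternative, from 1.18 to 1.46 in YAP6SA when each library was left out in turn. Between left-out libraries, *Mrtfa*, *Mrtfb*, *Myocd* and *Elk1* changed sign in YAP6SA against GFP, with log2 fold changes from -0.23 to 0.23, -0.30 to 0.29, -0.64 to 0.35 and -0.51 to 0.04. Low counts limit *Elk1* most. The causes of the differences below were not tested.

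Counts of called genes are given for comparison A (YAP6SA against GFP), B (YAP5SA against GFP) and C (YAP5SA against YAP6SA), and those not given were within 1.5 times the reported count. Without the replicate block (the batch term), the cytoskeletal list had 0 calls in A and 7 in C, the cardiac list 2 in C, the immediate early list 0 in A and 3 in C, and the upstream and partner lists together 5 in C. Over all genes the calls were 6, 2931 and 1956, and 0, 2090 and 1152 without the block. In YAP6SA against GFP the calls over all genes were 145 without the filter, 82 with the likelihood ratio test, 55 with DESeq2 and 236 in the fit of 4 libraries. In these alternatives, in the same order, the cytoskeletal list had 9, 4, 5 and 12 calls there, the cardiac list 5, 2, 1 and 6, and the immediate early list 4, 2, 2 and 3. The upstream and partner lists had 1 call there without the filter, 1 with the likelihood ratio test, and 1 in a 4-library fit. The cardiac list had 6 calls in B and 14 in C without the filter, and 10 in C with the likelihood ratio test. At an FDR of 0.01 the calls over all genes were 2, 1117 and 660, the cytoskeletal list had 1, 15 and 7, the cardiac list 2 in C, the immediate early list 0, 3 and 0, and the upstream and partner lists 4 and 0 in B and C. At an FDR of 0.1 the calls over all genes in C were 3039, the cardiac list had 5 and 11 in B and C, and the upstream and partner lists 21 in B.

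When each library was left out in turn, the counts in the 3 comparisons ran from 2 to 12, 11 to 26 and 4 to 18 for the cytoskeletal list, 0 to 6, 1 to 11 and 1 to 16 for the cardiac list, 1 to 3, 3 to 13 and 0 to 9 for the immediate early list, and 0 to 1, 2 to 30 and 0 to 22 for the upstream and partner lists. In YAP5SA against GFP the lowest counts came without GFP batch 2 and the highest without YAP5SA batch 1, and in YAP5SA against YAP6SA the lowest came without YAP6SA batch 2 and the highest without YAP5SA batch 1. In YAP6SA against GFP the cytoskeletal list reached 12 without either YAP5SA library. Over all genes the counts then ran from 6 to 216, 788 to 4799 and 410 to 4098. With the longest transcript as length, the levels in GFP were 23.4 CPM per kilobase for *Srf*, 7.21 for *Mrtfa*, 1.68 for *Elk1* and 13.9 for *Elk4*, and *Srf* was still the highest.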
